A study of Mus musculus with 7 samples.

Results

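The genes studied here encode the proteins of the mitochondrial ribosome, and were taken as all rows of the deposited table whose symbol starts with Mrpl or Mrps followed by a digit. This gave 77 of 24421 gene rows, 48 named Mrpl and 29 named Mrps, on 17 chromosomes. They were compared between left atria of adult CD1 mice labelled FOG2 overexpression (4 libraries) and left atria of adult CD1 mice labelled wild type (3 libraries). FOG2, encoded by Zfpm2, is a cofactor that binds GATA transcription factors, and the series asks about its part in gene networks of cardiac rhythm. The labels take the hearts from animals they call DTG and NTG, kept without doxycycline for 1 week, and do not say which name goes with which group. The promoter that drives the transgene is not given in the sources used here, nor whether the libraries of a group come from different animals. The p-values therefore reflect differences among these libraries alone, which may be technical.

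Mitochondria carry their own ribosomes, which translate the few messenger RNAs of the mitochondrial genome into membrane subunits of the respiratory chain and ATP synthase. All proteins of these ribosomes are made from nuclear genes in the cytosol and imported, and are assembled on RNAs transcribed inside the organelle into a small subunit, which decodes the messenger, and a large subunit, which joins the amino acids. Some of the proteins descend from those of bacterial ribosomes and others arose within mitochondria. Heart muscle is rich in mitochondria, and inherited defects in several of these genes cause cardiomyopathy.

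The gene rows summed to 5562520 to 8655655 counts per library. Levels below are in CPM, counts relative to library totals after TMM scaling, on which 1 count stood for 0.111 to 0.174 CPM. Tested members had 12 to 1445 counts per library. Zfpm2 stood at 31.7, 30.9 and 29.4 CPM in wild type replicates 1 to 3 and at 140, 222, 262 and 246 CPM in overexpression replicates 1 to 4, so every library matched its label and overexpression replicate 1 had the smallest rise of the 4. The log2 fold change of Zfpm2 was 2.82 ± 0.22 (SE; edgeR quasi-likelihood test, adjusted p = 2.05e-04). The atrial markers Nppa (13757 to 26300 CPM) and Myl4 (7439 to 9995 CPM) were high in all 7 libraries. The atrial light chain Myl7 fell from 8038 to 9016 CPM in wild type to 1425 to 3508 CPM in overexpression libraries. Its log2 fold change was -2.02 ± 0.30 (SE; edgeR adjusted p = 0.00628). Of 9 tested atrial cardiomyocyte markers, 4 were lower at an edgeR adjusted p under 0.05, against 3.29% of all tested genes. Below 0 were 8 of the 9, against 46.8% of all genes, and their median was -0.51. The ventricular light chain Myl2 lay between 0 and 1.39 CPM in 6 libraries and at 45.3 CPM in overexpression replicate 2. Transcripts from the Y chromosome were found only in wild type replicate 2 and overexpression replicate 1.

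Expression of the mitochondrial ribosomal protein genes differed little between the groups. Of the 76 members that passed the filter on low counts, 0 were called higher and 1, Mrps23, was called lower at an adjusted p under 0.05 (edgeR quasi-likelihood test, adjusted over 13295 genes). Over all tested genes, 4.84% were called in either direction, 1.55% higher and 3.29% lower. At an unadjusted p under 0.05, 0 members were higher and 7 of 76 were lower. Of all 13295 tested genes, 1215 were higher and 1336 lower by that measure, 19.2% in either direction. Members were thus called no more often than genes in general. These are bulk samples, in which fewer cells of a type and less RNA per cell cannot be told apart.

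The small differences leaned to one side. The median log2 fold change of the 76 members was -0.11, a change of -7.62%, with quartiles of -0.23 and -0.02, and the median of all tested genes was 0.02. Below 0 were 60 of 76 members (78.9%), against 46.8% of all genes. In 12 members (15.8%) all 4 overexpression libraries lay below all 3 wild type libraries, against 10.8% of all genes, and in 0 members did all lie above, against 8.99%. These 12 were Mrpl9, Mrpl11, Mrpl15, Mrpl39, Mrpl41, Mrpl43, Mrpl50, Mrps9, Mrps16, Mrps23, Mrps27 and Mrps36. With library totals alone in place of TMM scaling, the median of members moved to 0.0109 and that of all genes to 0.15, so members lay below the other genes by a similar amount but no longer below 0.

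**Figure D1:**
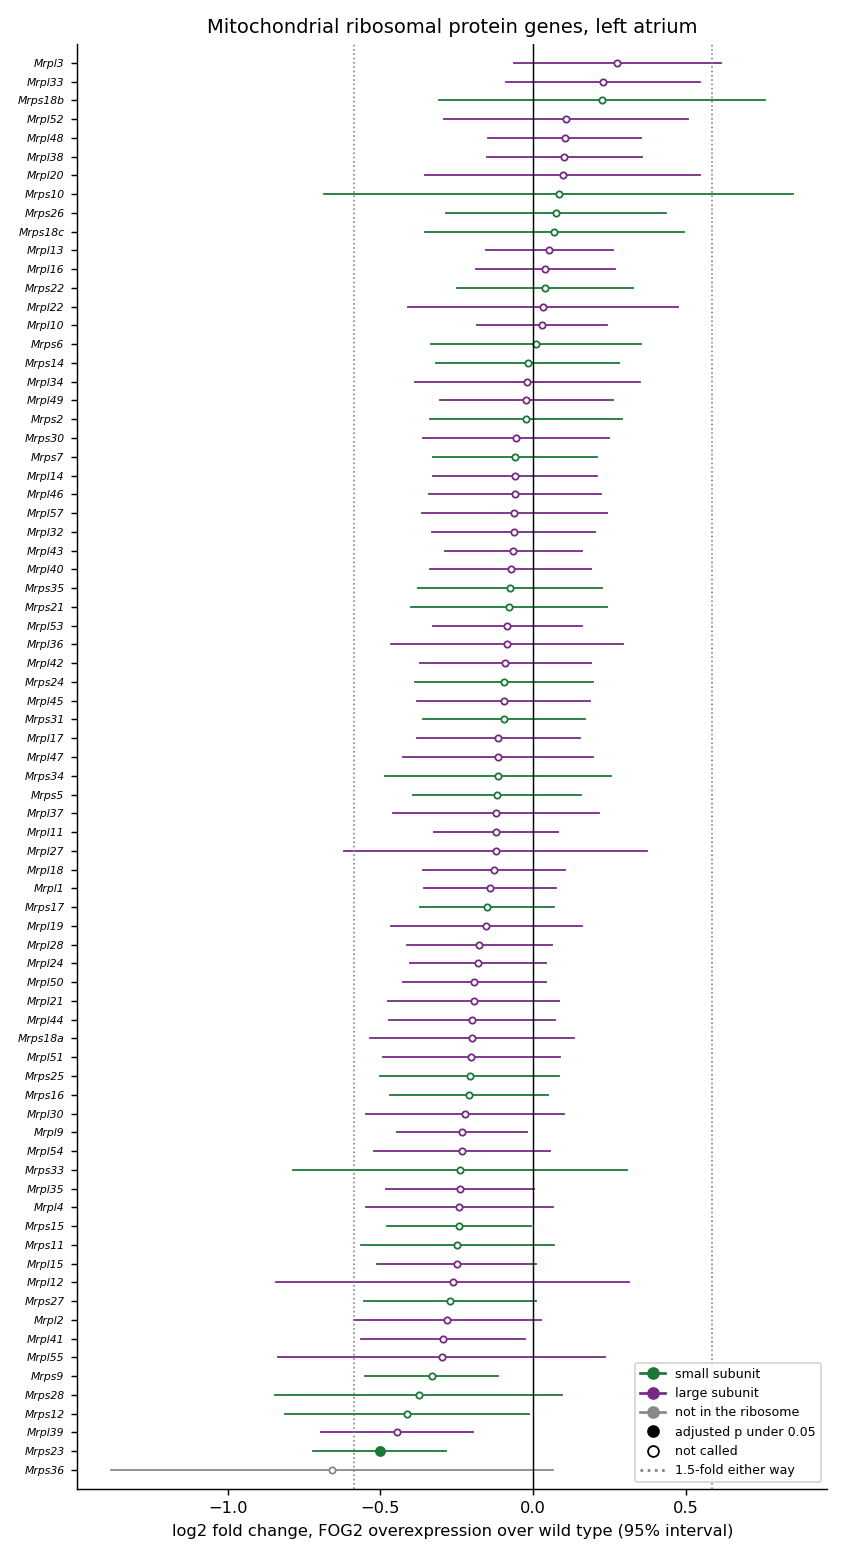
Log2 fold change of overexpression over wild type for each of the 76 tested members, ordered by value, with 95% intervals from the edgeR fit. Values run from -0.66 to 0.28, and most intervals stay inside the dotted lines at a 1.5-fold change.

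The intervals limit how large a change could have been missed. The median half-width of the 95% interval was 0.29 on the log2 scale. For 63 of 76 members (82.9%) the whole interval lay within 1.5-fold of no change, against 48.9% of all tested genes, which include many with fewer counts. The other 13 intervals reached past 1.5-fold. Of these, 10 did so on the lower side only (Mrpl2, Mrpl12, Mrpl27, Mrpl39, Mrpl55, Mrps12, Mrps23, Mrps28, Mrps33 and Mrps36), 2 on the higher side only (Mrpl3 and Mrps18b) and 1 on both sides (Mrps10).

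Summed over all members, expression was 3019, 3138 and 3318 CPM in wild type replicates 1 to 3 and 3092, 2923, 2653 and 2900 CPM in overexpression replicates 1 to 4. The group means were 3158 ± 151 CPM (SD, n = 3) and 2892 ± 181 CPM (SD, n = 4), and the groups overlapped. Overexpression replicate 1 was the library within the wild type range and replicate 3 the lowest. Relative to the wild type mean, the median member stood at -0.05, -0.02 and 0.06 on the log2 scale in the wild type libraries and at -0.00332, -0.07, -0.26 and -0.11 in the overexpression libraries. Without overexpression replicate 3 the median log2 fold change of members was -0.07. The members that followed this median most closely over the 7 libraries were Mrpl15 (Pearson r = 0.94, Spearman rho = 0.86), Mrps34 (r = 0.92, rho = 0.86) and Mrpl18 (r = 0.92, rho = 0.93), given as a description, since all share the same 7 libraries and their depth.

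**Figure D2:**
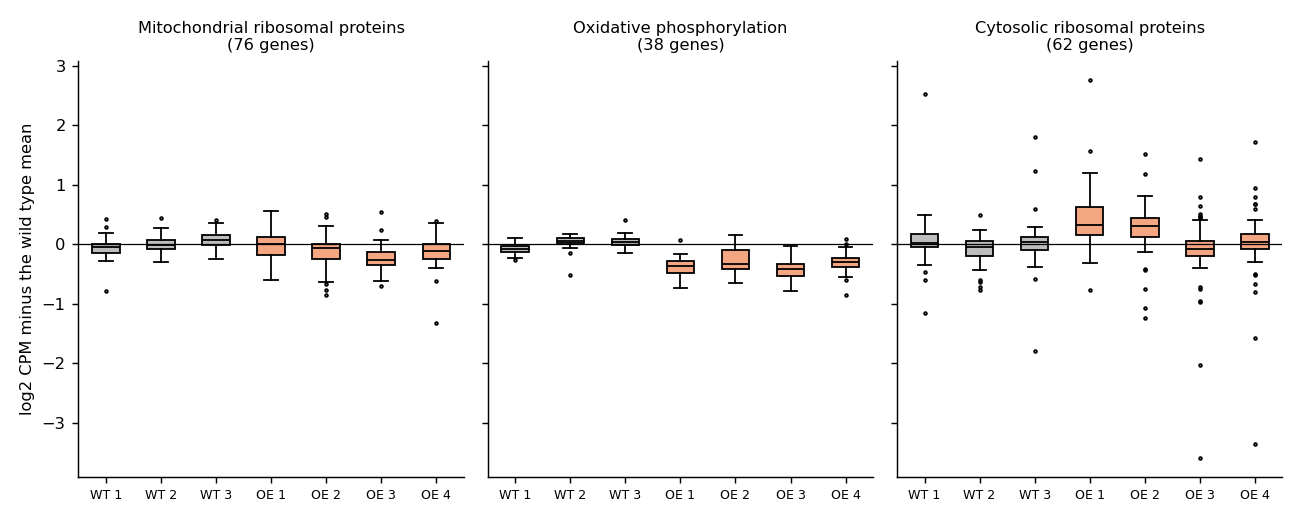
Distribution over the 76 tested members of log2 CPM relative to the wild type mean, with 1 box per library (line, median; box, quartiles), and the same for oxidative phosphorylation and cytosolic ribosomal protein genes. In the first panel the box of overexpression replicate 3 is the lowest (median -0.26), and that of overexpression replicate 1 lies with the wild type libraries.

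Members of the small subunit changed in 1 case. Mrps23, a protein of the small subunit that bacteria lack, is encoded at chr11:88204388-88211507 on the plus strand (GRCm38, GENCODE M21). It stood at 71.4, 78.0 and 76.9 CPM in the wild type libraries and at 51.8, 48.7, 53.2 and 59.1 CPM in the overexpression libraries. The groups did not overlap, and all 4 overexpression libraries were low. Means were 75.4 ± 3.49 CPM (SD, n = 3) and 53.2 ± 4.38 CPM (SD, n = 4). Mrps23 fell by 0.50 ± 0.10 (SE) on the log2 scale, with a 95% interval of -0.72 to -0.28, a change of -29.4% (edgeR adjusted p = 0.0202). None of the 50-letter words of its main transcript occurred in another annotated transcript. Its call was kept under 13 of 20 alternative settings. Those that ended it were the removal of wild type replicate 1, 2 or 3 (edgeR adjusted p = 0.0614, 0.105 and 0.0685), the removal of overexpression replicate 2 or 3 (0.0557 and 0.0509), a term for the replicate number (0.0618), and scaling to sarcomere genes (0.715, with a log2 fold change of -0.08). The sarcomere genes themselves stood lower, with 8 of 35 called lower, against 3.29% of all genes, and a median log2 fold change of -0.35. Their sums were 147017 to 174590 CPM in wild type and 99406 to 137937 CPM in overexpression libraries.

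Mrps9, a small subunit protein with a bacterial counterpart, lies at chr1:42851233-42905683 on the plus strand. It stood at 56.0, 57.2 and 61.2 CPM in wild type libraries, against 50.3, 47.5, 41.9 and 44.8 CPM with overexpression. Its groups did not overlap either, but the log2 fold change of -0.33 ± 0.10 (SE) did not pass the test (edgeR adjusted p = 0.0903). Mrps12 is a homologue of the bacterial protein at the decoding centre. Its values were 24.9, 32.3 and 33.0 CPM in wild type libraries, against 27.0, 16.5, 24.2 and 22.6 CPM with overexpression, and the groups overlapped (log2 fold change -0.41 ± 0.18 SE, edgeR adjusted p = 0.245). Over the 26 members of the small subunit, 20 were below 0 with a median log2 fold change of -0.11. Their summed expression was 895.8 ± 63.7 CPM (SD, n = 3) in wild type and 802.6 ± 42.4 CPM (SD, n = 4) in overexpression libraries.

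None of the 49 tested members of the large subunit was called, and 39 were below 0, with a median log2 fold change of -0.11. Summed, they stood at 2259 ± 86.7 CPM (SD, n = 3) in wild type and 2087 ± 139 CPM (SD, n = 4) in overexpression libraries. Mrpl39, a large subunit protein specific to mitochondria, is encoded at chr16:84717576-84735742 on the minus strand and had the second smallest p of all members. It stood at 43.3, 50.4 and 40.0 CPM in wild type and at 33.4, 32.9, 29.9 and 34.4 CPM in overexpression libraries. The groups did not overlap, and the log2 fold change was -0.44 ± 0.11 (SE), with a 95% interval of -0.69 to -0.20. Its edgeR adjusted p was 0.0556. It passed the threshold with DESeq2 (adjusted p = 0.0215), which called 2 members and 5.14% of all genes lower. It also passed in edgeR without overexpression replicate 1 (adjusted p = 0.0362), where 5 members and 4.99% of all genes were called lower.

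Mrpl41 and Mrpl9, also of the large subunit, followed. Mrpl41 stood at 44.2, 35.3 and 37.3 CPM in wild type and at 32.2, 28.3, 31.5 and 34.9 CPM in overexpression libraries (log2 fold change -0.30 ± 0.12 SE, edgeR adjusted p = 0.218). Mrpl9, which has a bacterial counterpart, stood at 59.0, 58.9 and 58.3 CPM in wild type libraries, against 44.4, 50.7, 53.4 and 51.7 CPM with overexpression (log2 fold change -0.23 ± 0.09 SE, edgeR adjusted p = 0.221). In both genes every overexpression library lay below every wild type library, by less than 1 CPM between the nearest pair for Mrpl41.

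On the higher side, Mrpl3 had the largest positive difference. Its protein lies near the site of peptide bond formation, and it is encoded at chr9:105053239-105079888 on the plus strand. Mrpl3 stood at 45.7, 44.8 and 55.5 CPM in wild type libraries, against 46.8, 55.6, 70.3 and 63.5 CPM with overexpression. The groups overlapped, and the log2 fold change was 0.28 ± 0.15 (SE), with a 95% interval of -0.06 to 0.61 (edgeR adjusted p = 0.363). Mrpl33 had 68.3, 68.2 and 81.2 CPM in wild type libraries, against 94.0, 98.9, 68.5 and 78.3 CPM with overexpression, with replicates 1 and 2 above the wild type range (log2 fold change 0.23 ± 0.14 SE, edgeR adjusted p = 0.418). Scaling to sarcomere genes, which themselves stood lower (median -0.35), shifts the median of all genes to 0.46 and that of members to 0.33. So scaled, Mrpl3 and Mrpl33 were the 2 members called higher, where 20.2% of all genes were called higher. Of the 16 members above 0, the next by p were Mrps18b 0.23 ± 0.24, Mrpl48 0.10 ± 0.11, Mrpl38 0.10 ± 0.11 and Mrpl52 0.11 ± 0.18 (log2 fold change ± SE). The other positive members had smaller log2 fold changes. Without overexpression replicate 1, Mrpl52 turned to -0.06 and Mrps18b stood at 0.10. Without wild type replicate 2 they stood at 0.0014 and 0.09. Of the words of Mrps18b, 63.7% are shared with other transcripts.

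**Figure D3:**
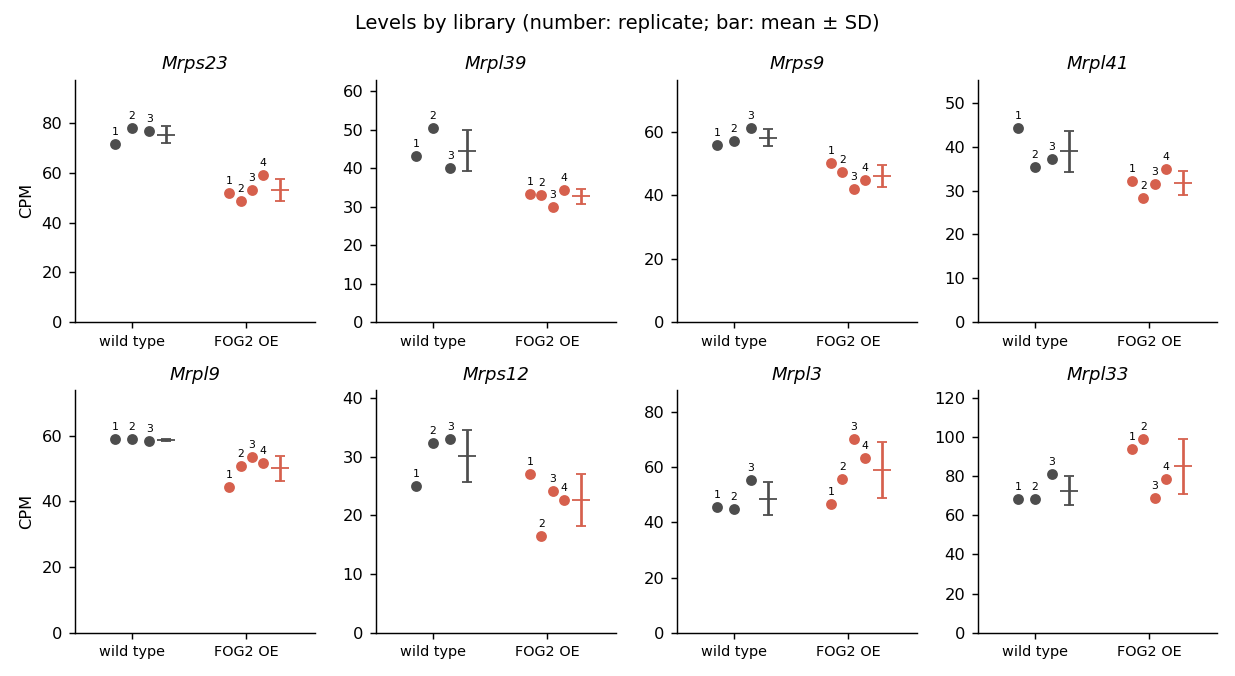
CPM in each of the 7 libraries for 8 named members, with replicate numbers over the points and bars at the mean ± SD of each group. The overexpression points of Mrps23, Mrpl39 and Mrps9 lie below all wild type points, and those of Mrpl3 overlap them.

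Beside Mrpl3, genes in which variants are known to cause cardiomyopathy or mitochondrial encephalopathy in people were looked at by name. Mrpl44, of the large subunit, stood at 38.4, 42.9 and 50.1 CPM in wild type libraries, against 37.4, 34.4, 38.6 and 42.1 CPM with overexpression (log2 fold change -0.20 ± 0.12 SE, 95% interval -0.47 to 0.07). Mrpl12, at the stalk that recruits translation factors, had 50.2, 57.3 and 73.9 CPM against 75.4, 37.4, 39.0 and 48.9 CPM, with overexpression replicate 1 above all wild type libraries and the other 3 below them (-0.26 ± 0.25 SE, interval -0.84 to 0.32). Its log2 fold change was -0.53 without overexpression replicate 1 (edgeR adjusted p = 0.0713) and -0.09 without wild type replicate 3. Mrps22 stood at 25.0, 23.6 and 23.3 CPM against 28.3, 25.7, 20.9 and 23.4 CPM (0.04 ± 0.13 SE, interval -0.25 to 0.33). Mrps34 stood at 16.6, 18.8 and 21.9 CPM against 20.8, 17.9, 13.7 and 17.8 CPM (-0.11 ± 0.16 SE, interval -0.48 to 0.26). All 4 overlapped between groups, and the interval of Mrpl12 leaves room for a change past 1.5-fold on the lower side. Reads of Mrps34 are uncertain, since 52.4% of the 50-letter words of its transcript occur in other transcripts and its exons overlap those of Mapk8ip3 and Nme3.

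The names of 3 members do not give their place. Mrps30 and Mrps18a sit in the large subunit, and were counted there. Their log2 fold changes were -0.06 ± 0.13 (SE) and -0.20 ± 0.15 (SE). Mrps36 is now known as a component of the oxoglutarate dehydrogenase complex and was counted with neither subunit. It had the lowest log2 fold change of all members, -0.66 ± 0.32 (SE), with an interval of -1.38 to 0.07 (edgeR adjusted p = 0.309). Its 7 values were low, 3.58, 3.53 and 4.56 CPM in wild type libraries, against 2.89, 3.32, 2.26 and 1.40 CPM with overexpression, without overlap, and 36.2% of its words are shared, mostly with the copy Mrps36-ps1. By origin, 46 tested members with bacterial homologues had a median log2 fold change of -0.12, and 29 that arose in mitochondria had one of -0.09.

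Mrpl23 was the member that did not pass the filter. It had 2, 2 and 2 counts in wild type and 4, 0, 4 and 4 counts in overexpression libraries, and the 0 in overexpression replicate 2 allows a level of up to 0.433 CPM (3 counts, counting error only). Of its words, 76.4% are shared with other transcripts, chiefly those of the copy Mrpl23-ps1, and reads with several alignments were counted apart by the authors, so its count is no measure of its expression. Of all 77 members, 28 share no words and 17, Mrpl23 included, share more than 20%. An exon of 23 members overlaps another gene of the table. Where that gene lies on the opposite strand, as for Mrpl46 and Mrps11 with each other, reads cannot be assigned without a strand setting, which is not given in the sources used here.

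Levels between members were compared as CPM per kilobase of the main transcript. In wild type libraries the median of tested members was 21.7 and the range 3.86 to 242, and 40 of 76 (52.6%) lay within 2-fold of the median. Mrpl42 was the highest at 242 ± 12.3 CPM per kilobase (SD, n = 3), followed by Mrpl33 at 152 ± 15.6 and Mrpl30 at 151 ± 13.1, which did not differ beyond their spread, and by Mrps6 at 91.6 ± 10.8. Lowest were Mrps26 at 3.86 ± 0.0344 and Mrps10 at 4.11 ± 1.74, which did not differ beyond their spread either. In overexpression libraries the same genes stood at 227 (Mrpl42), 178 (Mrpl33), 129 (Mrpl30), 92.2 (Mrps6), 4.04 (Mrps26) and 4.34 (Mrps10) CPM per kilobase. Small subunit members had a wild type median of 18.8 and large subunit members one of 24.4 CPM per kilobase. Which transcript is used in atria was not measured, so a long annotated end lowers a gene in this order. Of the words of Mrpl42, Mrpl33, Mrps6 and Mrps10, 18.8%, 30.3%, 32.2% and 24.8% are shared with other transcripts. For Mrpl30 and Mrps26 the shares are 4.78% and 5.37%. An exon of Mrps6 also overlaps Slc5a3 on the same strand. The effect of shared and overlapping stretches on the order was not tested.

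**Figure D4:**
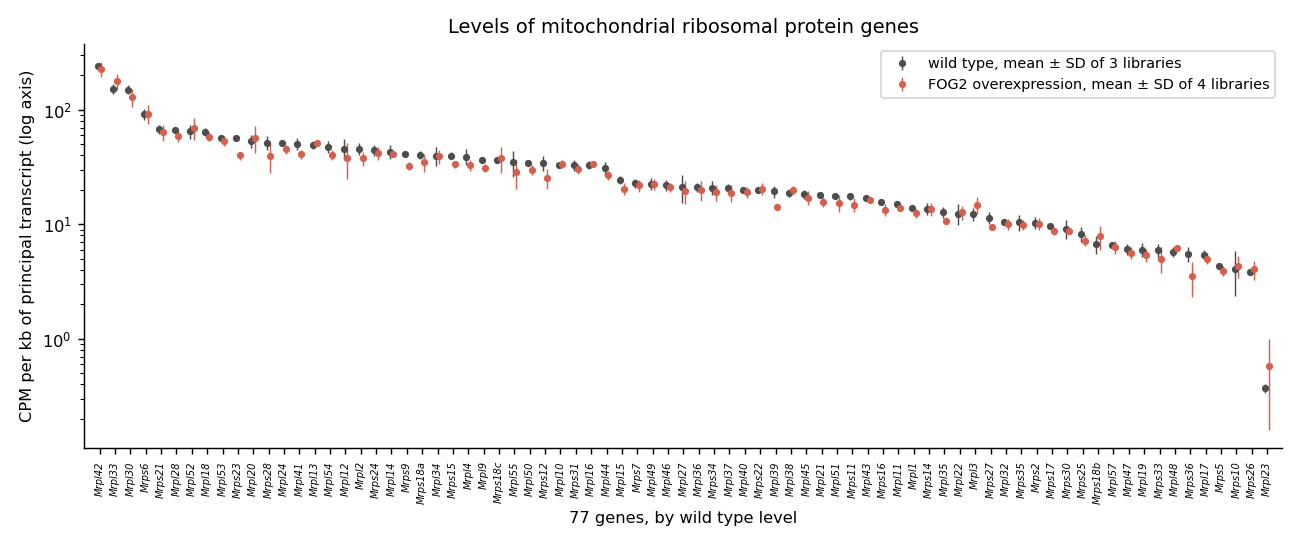
Mean ± SD of CPM per kilobase of main transcript (log axis) for all 77 members, ordered by wild type level, in wild type and overexpression libraries. Wild type means run from 242 for Mrpl42 to 3.86 for Mrps26, with the untested Mrpl23 below them at 0.370.

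The spread between wild type libraries, as a coefficient of variation of CPM, had a median of 10.1% over tested members. It was widest for Mrps10 (42.4%, from 18, 38 and 41 counts), Mrpl27 (27.8%) and Mrpl55 (26.1%), and narrowest for Mrpl9 (0.702%), Mrps26 (0.893%) and Mrpl40 (1.48%). The narrowest values lie below what counting error alone gives on average, so they do not mark these genes as steady. The interval of Mrps10, from -0.69 to 0.85, takes in changes past 1.5-fold in both directions.

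Promoter sequences are printed for Mrps23, the called member, for Mrpl39 and Mrps9, next by p, and for Mrpl3, the most positive one, so that the motifs known from genes of the mitochondrial ribosome can be read in them. Each is the 250 bases before the RefSeq start (GRCm38.p6), 5′ to 3′ on the gene's strand, with matches to the NRF1, ETS and YY1 motifs in capitals. They lie at chr11:88204138-88204387 (Mrps23), chr16:84735245-84735494 (Mrpl39, minus strand), chr1:42850983-42851232 (Mrps9) and chr9:105053018-105053267 (Mrpl3). The RefSeq and GENCODE M21 starts differ for Mrpl39 and Mrpl3. By the GENCODE positions given above, the whole stretch of Mrpl39 and the last bases of that of Mrpl3 lie inside the gene.
Mrps23: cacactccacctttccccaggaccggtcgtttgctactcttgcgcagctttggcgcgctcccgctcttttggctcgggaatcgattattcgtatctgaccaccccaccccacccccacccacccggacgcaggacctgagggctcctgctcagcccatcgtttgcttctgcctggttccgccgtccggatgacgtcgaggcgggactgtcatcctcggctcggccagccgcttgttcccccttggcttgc
Mrpl39: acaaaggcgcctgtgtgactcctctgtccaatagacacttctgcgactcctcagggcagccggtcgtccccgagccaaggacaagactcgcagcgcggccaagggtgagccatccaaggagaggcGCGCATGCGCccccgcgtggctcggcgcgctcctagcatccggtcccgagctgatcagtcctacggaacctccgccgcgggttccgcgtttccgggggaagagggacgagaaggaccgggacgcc
Mrps9: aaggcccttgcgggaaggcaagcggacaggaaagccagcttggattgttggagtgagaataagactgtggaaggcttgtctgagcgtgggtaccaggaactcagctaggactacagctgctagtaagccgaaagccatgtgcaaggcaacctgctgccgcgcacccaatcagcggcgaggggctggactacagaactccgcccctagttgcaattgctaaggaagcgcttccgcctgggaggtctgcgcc
Mrpl3: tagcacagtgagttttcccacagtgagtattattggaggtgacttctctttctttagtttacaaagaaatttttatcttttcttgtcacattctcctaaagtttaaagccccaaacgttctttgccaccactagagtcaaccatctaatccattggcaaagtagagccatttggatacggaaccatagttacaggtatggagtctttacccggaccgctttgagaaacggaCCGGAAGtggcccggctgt

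The stretch of Mrpl39 holds the NRF1 motif (GCGC, any base, then TGCGC) at base -125 from the start, and that of Mrpl3 holds the ETS motif CCGGAAG at -19. Matches to the other motifs searched stay in lower case, and include GATA at -178 in Mrpl3 and CCAAT at -219 and -99 in Mrpl3, at -223 in Mrpl39 and at -86 in Mrps9. In Mrps9 an NRF1 match begins at -5 and runs over the start, so it is not marked. Mrps23 has no match before its start and an ETS match on the opposite strand at 16 after it. NRF1, ETS family factors and YY1 are known regulators of nuclear genes for mitochondrial proteins.

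RefSeq windows from 250 bases before to 50 after the start were found for 68 members, 74 windows in all, and were searched on both strands beside 20788 windows of all genes. The NRF1 motif was in 17.6% of member windows and 6.42% of all windows, the ETS motif in 33.8% and 11.5%, and the YY1 motif (AANATGG followed directly by CGGC) in 9.46% and 1.41%. One or more of the 3 was in 38 member windows (51.4%), against 17.6% of all windows. The GATA motif AGATAA was in 14.9% and 9.58%, the T-box motif AGGTGTGA in 0% and 1.15%, CACGTG in 9.46% and 8.05%, and CCAAT in 40.5% and 38.0%. Genes with several starts count more than once, as does Mrpl2, whose overlapping windows hold CACGTG at -131, -139 and -147. Median GC content was 58.5% in member windows and 56.7% in all. Matches of the first 3 motifs overlapped one another in 0 member windows. A match describes letters and is not a binding site.

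A further trait, found in a part of the members, was a close neighbour. Of the 77 members, 18 (23.4%) have a protein-coding gene that starts within 1000 bases upstream and runs the other way, against 7.04% of 19927 protein-coding genes. Pairs that overlap at their starts, as Mrpl46 and Mrps11 do, were not counted. The log2 fold changes of 16 such neighbours that were tested ran from -0.62 to 0.37, with a median of -0.13. Below 0 were 10 of the 16, against 46.8% of all genes. Of the 16, 2 were called lower, where 3.29% of all genes were. These were Ptcd2, a factor for mitochondrial messenger processing that starts 81 bases from Mrps27 (-0.60 ± 0.13 SE, edgeR adjusted p = 0.0347), and Pnpla7, a lysophospholipase that starts 935 bases from Mrpl41 (-0.60 ± 0.13 SE, edgeR adjusted p = 0.0303). The Pnpla7 call was kept in 12 of 20 alternative settings, and was lost on removal of any wild type library or of overexpression replicate 2 or 4. Mrps27 and Mrpl41 themselves had log2 fold changes of -0.27 ± 0.13 (SE) and -0.30 ± 0.12 (SE), neither of them called.

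The rest of the mitochondrial translation apparatus had medians of a similar size. Of 6 ribosomal subunits that carry other names, all had log2 fold changes below 0, with a median of -0.19, and 1 passed the test. That was Ptcd3, a small subunit protein with RNA-binding repeats, at 145, 149 and 133 CPM in wild type libraries, against 104, 108, 105 and 109 CPM with overexpression (-0.42 ± 0.08 SE, edgeR adjusted p = 0.0229), and the groups did not overlap. Of 27 tested assembly factors, 0 rose and 2 fell, with a median of -0.12: Nsun4, a ribosomal RNA methyltransferase (-0.50 ± 0.11 SE, adjusted p = 0.0342), and Rbfa, a factor for small subunit maturation (-0.50 ± 0.12 SE, adjusted p = 0.0464). None of 17 translation factors (median -0.18), 14 tested genes of mitochondrial DNA upkeep and transcription (-0.13), 31 import genes (-0.07) or 15 regulators of mitochondrial gene programmes (-0.11) passed, and of 23 mitochondrial RNA processing genes (-0.13) 1, Ptcd2, fell. These calls lay near the threshold, and 3.29% of all genes were called lower. Over the 20 alternative settings Ptcd3 was called lower in 11, Nsun4 and Ptcd2 in 10 each and Rbfa in 6, and all 4 calls were lost on removal of wild type replicate 1 or 2 or of overexpression replicate 2 or 3, with library totals alone, with a replicate block and when scaled to the sarcomere genes.

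A chosen list of nuclear genes of oxidative phosphorylation, the system whose mitochondrially encoded subunits these ribosomes make, stood lower. The list is not a full set of such genes, and was drawn up with earlier results of these data known. Of 38 tested, 0 rose and 6 fell (Ndufb5, Ndufs7, Sdha, Sdhb, Sdhd and Cox5a), against 1.55% and 3.29% of all genes. All 38 were below 0, against 46.8% of all genes, and the median was -0.36. The Sdh genes encode complex II, which has no mitochondrially encoded subunit. Of the 6 calls, that of Ndufs7 was kept in 16 of 20 alternative settings and those of Sdhd and Cox5a in 7 each. All 6 were lost on removal of wild type replicate 2 or 3, with a replicate block and when scaled to the sarcomere genes. The summed expression of the 38 genes was 22351 to 24884 CPM in wild type and 18794 to 20877 CPM in overexpression libraries, without overlap. The sums of the mitochondrial ribosomal protein genes overlapped. Sums of the ribosomal subunits with other names (405 to 419 against 323 to 367 CPM) and of assembly factors (561 to 569 against 509 to 531 CPM) also lay apart. So did those of translation factors and RNA processing genes. Sums of regulators barely did, with a lowest wild type sum of 789.7 CPM and a highest overexpression sum of 788.9 CPM. Sums of import genes and of genes for mitochondrial DNA upkeep and transcription overlapped. Cytosolic ribosomal protein genes, which serve the other ribosome of the cell, had a median of 0.14 over 62 tested. Relative to the wild type mean, their median stood at 0.33, 0.30, -0.08 and 0.03 in overexpression replicates 1 to 4, so the libraries differed in direction. What the reads set apart for several alignments would add to these genes was not measured. Of the 62, 0 were called higher and 1 lower, Rpl3l, a form made in heart and skeletal muscle (-0.76 ± 0.17 SE, edgeR adjusted p = 0.0389). The Rpl3l call was kept in 10 of 20 alternative settings, and was lost on removal of wild type replicate 1 or 2 or of overexpression replicate 2, 3 or 4. The difference between the medians of these lists was not tested.

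**Figure D5:**
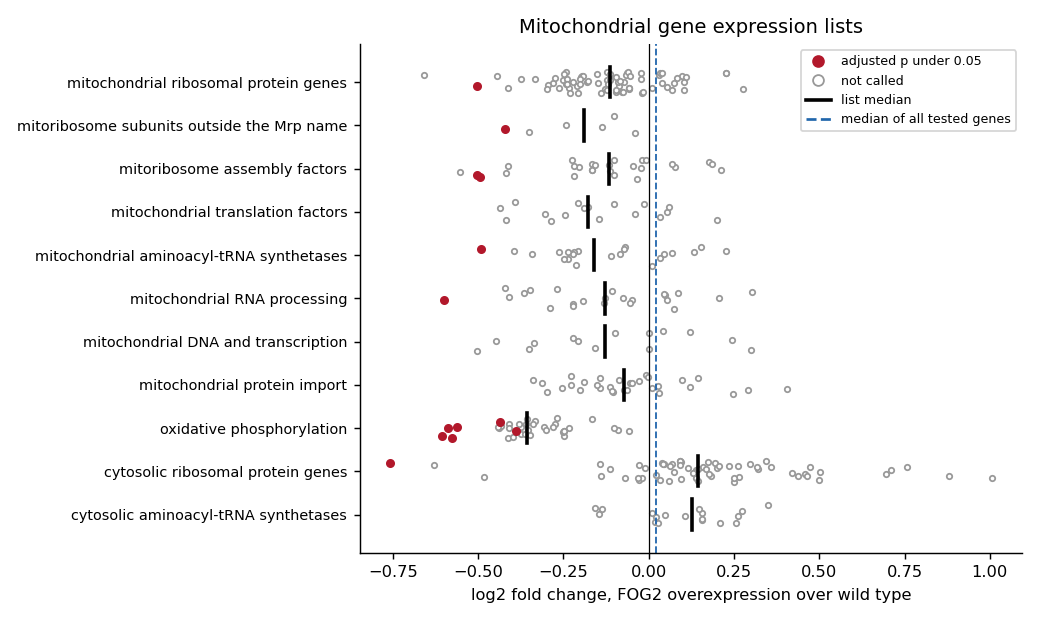
Log2 fold changes of overexpression over wild type by gene list, with 1 point per tested gene (filled where called), a bar at the median of each list and a dashed line at the median of all tested genes. The mitochondrial ribosomal protein genes centre on -0.11, the listed oxidative phosphorylation genes on -0.36 and cytosolic ribosomal protein genes on 0.14.

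Markers of cell types moved beside these values. Of 10 cardiomyocyte markers, 4 were called lower (3.29% of all genes) and all 10 were below 0 (46.8% of all genes). The median was -0.40, with a summed level of 128811 to 154658 CPM in wild type and 80602 to 116263 CPM in overexpression libraries. Of 11 smooth muscle and pericyte markers, 3 were called higher (median 0.62), against 1.55% of all genes. None was called of 11 fibroblast markers (0.45), 10 macrophage markers (0.30), 6 epicardial markers (0.53) and 11 endothelial markers (-0.06). Their part in the values of the mitochondrial ribosomal protein genes was not tested. In the 5 libraries without Y-linked transcripts, 0 members were called higher (2.19% of all genes) and 1, Mrps23, lower (3.07% of all genes), and the median of members was -0.16.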

How the data were processed

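Left atrial RNA was sequenced in 7 libraries. The authors deposited whole-number counts per gene; per the submitters' processing notes, STAR, HTSeq 0.6.0, DESeq2 and the mm10 build were used, with no role given. One label calls the libraries polyA mRNA-seq, whereas the protocol names ribosomal RNA removal. Neither strand setting nor annotation is given in the sources used here. Rows naming no gene were left out: per library reads outside features made up 23.4% to 30.5%, reads with several alignments 37.1% to 43.4% and ambiguous reads 0.101% to 0.254%, leaving 27.8% to 33.1% in genes.

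Low genes were removed by filterByExpr, given the groups, at a minimum count of 10 and total of 15. The test was that of edgeR 4.0.16 under R 4.3.3 (TMM, robust quasi-likelihood F test, two-sided, no covariate), with Benjamini-Hochberg adjustment over 13295 genes and a threshold of 0.05. The script was tested on simulated data. Intervals are 95% and use the moderated degrees of freedom. The common biological coefficient of variation was 0.188. CPM per kilobase uses main transcript lengths of GENCODE M21 (GRCm38), in which 95.5% of the table's symbols had a unique gene. Alternatives were DESeq2 1.42.0, limma-voom (limma 3.58.1), other scalings and filters, a replicate block, a Y-linked covariate and leaving out each library; the 5 libraries without Y-linked transcripts were fitted as a choice made after seeing the data.

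The members and lists were chosen with earlier results of these data known. Named members are those called, the 6 smallest p in each direction, the extremes of level (5 highest, 3 lowest) and of wild type variation (3 each), the member that failed the filter, and 8 by name; of other lists, called genes and the 2 smallest p. One result on a related gene list is not reported here.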

Additional observations from a re-analysis of the deposited data

Results flagged for a closer look

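Within the 4 overexpression libraries, 8 of 91 named genes had 1 library farther from the other 3 than Dixon's limit for a share of the range. Chance alone flags about 1 in 20 such groups. Mrpl27, a large subunit protein near the site of peptide bond formation, was the single gene with an Mrpl or Mrps symbol among them, with 19.5 CPM in overexpression replicate 1 against 13.1, 12.7 and 13.5 CPM in the others. Wild type replicate 1 had 21.2 CPM and the other wild type libraries 13.7 and 13.3 CPM. Dap3, a small subunit protein that binds GTP, was highest in overexpression replicate 2 at 80.0 CPM. In overexpression replicate 1, Fars2 was lowest at 33.9 CPM, and the epicardial genes Krt19 and Upk1b were highest at 76.2 and 96.7 CPM. Sdhb was lowest in overexpression replicate 3 at 389.7 CPM. In overexpression replicate 4, Timm44 was highest at 60.2 CPM and Mybpc3 at 564 CPM.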

How the results depend on the processing

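Over 20 alternatives, 600 values of 30 named members gave 0 reversals of a called direction: 524 stayed the same, 64 moved, 7 lost and 5 gained a call. A value was counted as moved if it shifted by at least its reported SE or changed sign, without a call. The sign was kept by 559 of the 600 values, and by 546 of 570 without the scaling to sarcomere genes. Members called higher stayed at 0 except for 2 when scaled to the sarcomere list. Members called lower numbered 2 with DESeq2 and 0 when scaled to the sarcomere list, and 0 to 5 when 1 library was left out. The 5 were called without overexpression replicate 1: Mrps23, Mrpl39, Mrps9, Mrpl51 (log2 fold change -0.33) and Mrps28 (-0.59), where 4.99% of all genes were called lower. The median of members was 0.0109 with library totals only and 0.33 when scaled to the sarcomere list. All genes called higher (206 as reported) numbered 460 with DESeq2, 444 with library totals only, 339 with totals without the 10 most abundant genes, 2681 when scaled to the sarcomere list, and 75 to 493 when 1 library was left out. All genes called lower (438) numbered 681 with DESeq2, 176 when scaled to the sarcomere list, and 181 to 658 when 1 library was left out. The log2 fold change of Zfpm2 was 2.72 to 2.99 when 1 library was left out. The cause of these shifts was not tested.

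With the replicate number as a block, 129 genes were called higher and 253 lower, and 0 members either way. Deviations of same-numbered libraries correlated at 0.0789, 0.0136 and 0.0720, so the numbers were not taken to pair the samples, and wild type replicate 2 correlated best with overexpression replicate 4 (0.152), not with its own number. The number of libraries and counts limits the precision to a median interval half-width of 0.29 on the log2 scale.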
